A study of Mus musculus with 6 samples.

Results

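The chemokine ligand genes are described here in mammary tumors with both alleles of *Apc* mutated and in control mammary glands. *Apc* is a tumor suppressor that restrains Wnt/β-catenin signaling. Members were the genes whose symbol is Ccl, Cxcl, Cx3cl or Xcl followed by a number and at most 1 letter, taken from probe sets that the array annotation gives a single symbol. There were 33 such genes, measured by 51 probe sets, among 18193 genes on the array with a single symbol. Each gene was represented by its brightest probe set, judged by the mean of its log2 signals. For 13 members this meant a choice among several probe sets, and for 20 there was 1 probe set.

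Total RNA from 3 acinar mammary tumors and 3 control mammary glands was hybridized to Affymetrix GeneChip mouse arrays, 1 array per sample. The tumors were acinar-type adenocarcinomas from K14-cre; ApcCKO/+ females, which carried Cre recombinase under the keratin 14 promoter and 1 conditional *Apc* allele, and per the study, this allele was recombined and the other *Apc* allele truncated in all 3 tumors. The control glands came from age-matched mice without the cre transgene. The tumor-bearing mice had a mixed background of C57BL/6, 129/S and FVB. No treatment is named, and the ages, and the strain and *Apc* genotype of the controls, are not given in the sources used here. The keratin 14 promoter is active in basal and progenitor cells of several epithelia, so recombination was not limited to the mammary gland. Replicates are labelled as biological, but nothing says that each came from a separate mouse, so p-values measure the spread between these samples.

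Chemokines are small secreted proteins that bind G protein-coupled receptors on leukocytes and other cells and direct where those cells move. They are named by the spacing of their conserved cysteines (CC, CXC, CX3C and C). Inflammatory chemokines are switched on by cytokines, microbial products and interferons, while homeostatic chemokines are made constitutively and place cells within tissues. In the mammary gland chemokines attract macrophages and eosinophils to growing ducts, and in lactation they bring antibody-secreting plasma cells to the gland.

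The regulatory stretches of 5 members are shown because these genes illustrate the 2 best known inducible inputs of the family, NF-κB and interferon, and because the CXC genes lie side by side but did not all change. All are RefSeq promoter sequences of GRCm38.p6 on chromosome 5, written 5′ to 3′ along the strand of the gene, with matches to the searched letters in capitals. *Cxcl1* (chr5:90891135-90891234), *Cxcl2* (chr5:90903789-90903888), *Cxcl3* (chr5:90785991-90786090) and *Cxcl15* (chr5:90794424-90794523), on the plus strand, cover bases 110 to 11 before the start. *Cxcl10* (chr5:92349070-92349119), on the minus strand, covers bases 230 to 181 before the start.
Cxcl1: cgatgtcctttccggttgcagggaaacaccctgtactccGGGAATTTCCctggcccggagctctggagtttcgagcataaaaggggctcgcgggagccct
Cxcl2: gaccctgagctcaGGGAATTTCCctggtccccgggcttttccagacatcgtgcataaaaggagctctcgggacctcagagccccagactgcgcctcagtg
Cxcl3: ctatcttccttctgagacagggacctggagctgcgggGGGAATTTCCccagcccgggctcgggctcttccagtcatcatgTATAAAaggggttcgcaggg
Cxcl15: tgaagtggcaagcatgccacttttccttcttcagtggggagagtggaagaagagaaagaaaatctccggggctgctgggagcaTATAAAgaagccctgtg
Cxcl10: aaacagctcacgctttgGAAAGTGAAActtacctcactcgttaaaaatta

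In the lines for *Cxcl1*, *Cxcl2* and *Cxcl3* the capitals GGGAATTTCC match the NF-κB letters searched (GGGA, any base, TTTCC), and in those for *Cxcl3* and *Cxcl15* the capitals TATAAA match the TATA box. In the line for *Cxcl10* they match the core of the interferon-stimulated response element (GAAA, any 2 bases, GAAA). Both strands of the 250 bases before the start were searched in 32851 RefSeq promoters, among which 23 members were represented. Percentages are of promoters, and members are counted as genes. The NF-κB letters stood in 0.356% of all promoters and in those of *Cxcl1*, *Cxcl2* and *Cxcl3* among the members. The interferon element stood in 2.98% of promoters, among the members in *Cxcl10* and *Cxcl14*, and the interferon-γ element (TTC, any 3 bases, GAA) in 7.02%, among the members in *Ccl17* and *Cxcl14*. TATAAA stood in 12.4% of promoters and in those of 9 members. These are matches of letters, not measured binding sites.

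Most chemokine genes that differed were lower in the tumors, led by the eosinophil attractant *Ccl11*, the CXC chemokine *Cxcl15*, the CC chemokines *Ccl5*, *Ccl6* and *Ccl9*, the interferon-γ-induced *Cxcl9* and the B-cell attractant *Cxcl13*. The mucosal chemokines *Ccl28* and *Ccl25* were higher. Signals are MAS 5.0 values on a linear scale, on which each array was scaled to a common target of 500. For tests, signals were floored at 50 and put on the log2 scale, genes that reached a signal of 100 on 3 or more of the 6 arrays were kept, and limma's adjusted p under 0.05 was the call. Of the 33 members 20 passed the filter, and of these 7 were called lower, 2 higher and 11 neither. Over all 12518 genes tested, 16.8% were called lower and 16.3% higher. *Ccl5* and *Ccl11* reached a signal of 100 on the 3 control arrays alone, so that passing the filter itself required a difference, and the count of 7 is a description.

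**Figure D1:**
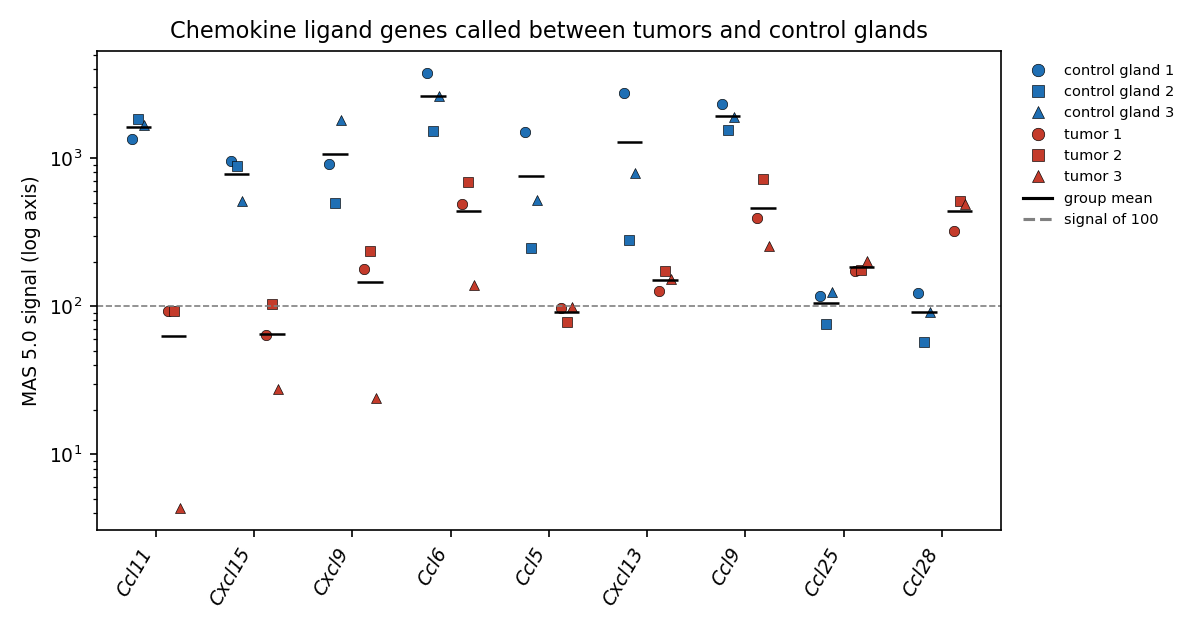
MAS 5.0 signal (log axis) of the 9 chemokine ligand genes called between the groups, 1 point per array, with control glands in blue, tumors in red, the group mean as a black bar and a signal of 100 as a dashed line. For *Ccl11* the controls lie between 1338 and 1838 and the tumors at or below 93.0, and for *Ccl28* the tumors lie between 324 and 514 above controls of at most 123.

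Every tumor signal was below every control signal for 8 of the 20 tested members, against 23.1% of all genes tested. Every tumor was above every control for 2, against 27.1% of all genes. The median log2 difference of tumor minus control was -0.80 over the tested members and 0.07 over all genes, and that of the members was -0.32 without tumor 3 and -1.12 without control 2. With 3 arrays against 3, an exact permutation test of a single gene cannot go below p = 0.1.

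**Figure D2:**
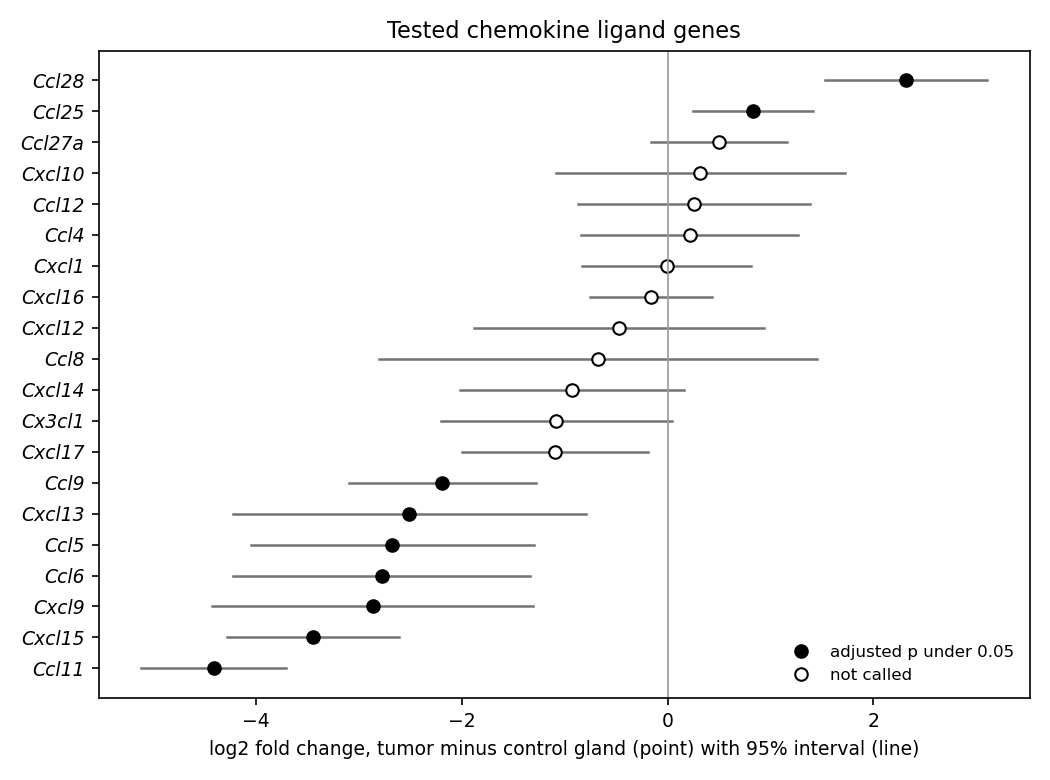
Log2 fold change of tumor minus control gland (points) with its 95% interval (lines) for the 20 tested chemokine ligand genes, filled where limma's adjusted p was under 0.05. The values run from -4.41 for *Ccl11* to 2.32 for *Ccl28*, and the 11 open points lie between -1.09 and 0.50.

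The arrays differed in ways that bear on these genes. Control gland 1 gave the highest signal of the 3 controls for 17 of the 20 tested members (85%) and for 35.4% of all genes tested. Control gland 2 gave the lowest control signal for 14 of them (70%), against 44% of all genes, and tumor 3 the lowest tumor signal for 11 (55%), against 35.5%. Median signals were 133 to 171 in controls and 124 to 138 in tumors. The ratio of 3′ to 5′ signal, a check of RNA integrity, also differed. For *Gapdh* it was 1.25 in tumor 3, 1.02 in tumor 2 and 0.795 to 0.891 on the other arrays. For actin it was 1.46 to 2.3 in controls and 1.44 to 2.32 in tumors, highest in tumor 3. The part of RNA integrity in the signals was not tested. The labelled tissue could be seen in its markers. All 9 tested adipocyte genes were lower in tumors (median log2 difference -6.19) and 8 of 10 epithelial genes were higher (median 2.35), while limma called 0 of the 6 tested skeletal muscle genes (2 at an unadjusted p under 0.05), with summed signals from 6852 to 151486 in controls and 493 to 35310 in tumors. In bulk tissue, fewer cells of a type and less RNA per cell cannot be told apart.

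**Figure D3:**
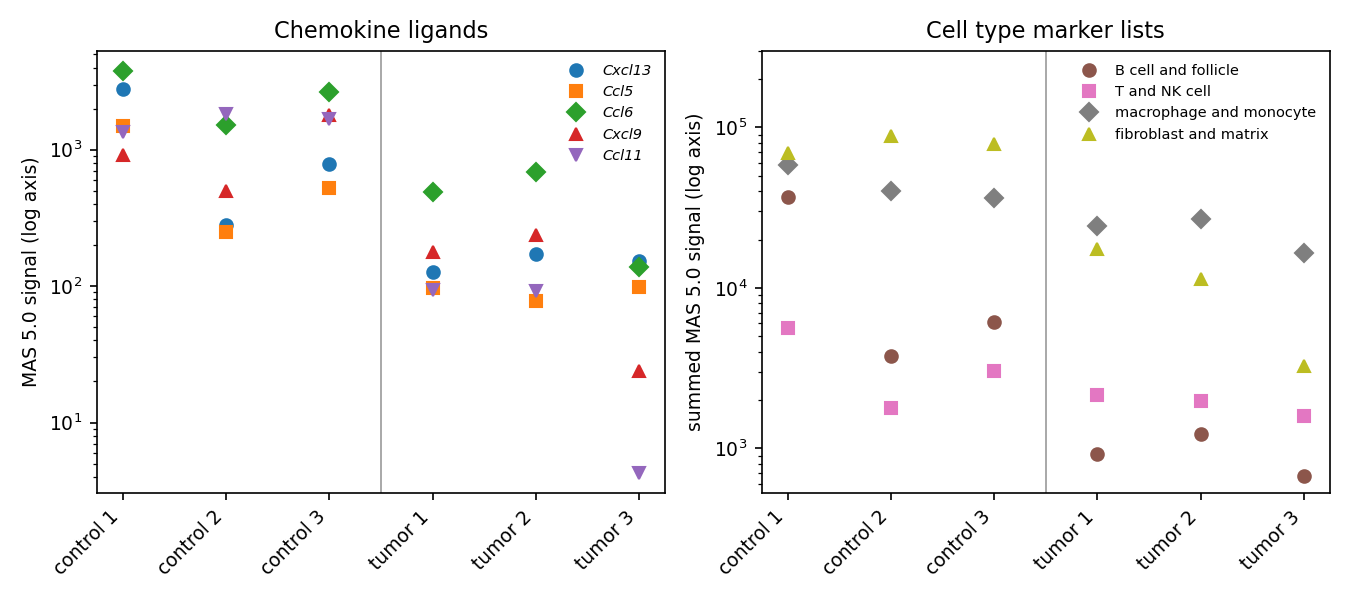
Signal by array, on log axes. Left, MAS 5.0 signal of *Cxcl13*, *Ccl5*, *Ccl6*, *Cxcl9* and *Ccl11*. Right, summed MAS 5.0 signal of the B cell and follicle, T and NK cell, macrophage and monocyte, and fibroblast and matrix marker lists. Over all 20 tested ligand genes, control gland 1 is the highest control for 17, control gland 2 the lowest for 14 and tumor 3 the lowest tumor for 11.

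The 2 eosinophil attractants that bind the receptor CCR3 are *Ccl11* (eotaxin-1), made by fibroblasts and other stromal cells and needed for eosinophils to enter the developing mammary gland, and *Ccl24* (eotaxin-2). *Ccl11* gave signals of 1338, 1838 and 1672 in control glands 1 to 3 and of 93.0, 92.0 and 4.3 in tumors 1 to 3. The groups were far apart, with every tumor below 100. The means were 1616 ± 254 and 63.1 ± 50.9 (SD, n = 3 each), and *Ccl11* fell by 4.41 on the log2 scale (SE 0.30, 95% interval -5.12 to -3.70, limma adjusted p = 0.000175), or 21.3-fold. *Ccl24* had signals of 43.6, 36.5 and 199.7 in controls and of 11.6, 15.6 and 9.5 in tumors. These groups did not overlap either, but 1 array in 6 reached 100 and the gene was not tested. Their receptor gene *Ccr3* was below 100 on every array (71.6 at most). Of the mast cell and eosinophil list 4 of 4 tested genes were lower (median -2.39), *Cpa3* with a log2 difference of -3.34 (adjusted p = 0.000324), *Mcpt4* with -2.42 and *Cma1* with -2.37. These are mast cell proteases. *Cpa3*, *Mcpt4* and *Tpsb2* reached a signal of 100 on the control arrays alone, so for 3 of the 4 genes passing the filter required the difference, and the count is a description. The eosinophil genes *Prg2*, *Epx* and *Siglecf* did not pass the filter, with signals of at most 137, 67.4 and 38.6. Fibroblast and matrix genes moved with *Ccl11*. In that list 11 of 12 were lower (median -3.32), with summed signals of 68961, 88290 and 78734 in controls 1 to 3 and 17421, 11417 and 3254 in tumors 1 to 3. *Dpt* (log2 difference -5.71), *Lum* (-4.57) and *Pdgfra* (-4.18) led it. The part of these cells in the *Ccl11* result was not tested.

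The 5 inflammatory CC chemokines *Ccl3*, *Ccl4*, *Ccl5*, *Ccl6* and *Ccl9* attract monocytes, macrophages and activated T cells, and 3 of the 4 tested were lower. *Ccl6* and *Ccl9* are rodent chemokines made by macrophages and other myeloid cells. *Ccl6* gave 3785, 1513 and 2631 in controls and 490.4, 686 and 139 in tumors. All tumors were below all controls, and tumor 3 was the lowest. The means were 2643 ± 1136 and 438 ± 277 (SD, n = 3 each) and the log2 difference was -2.78 (SE 0.62, adjusted p = 0.0135). Without tumor 3 it was -2.09, and a further probe set of the gene gave -2.57. *Ccl9* gave 2336, 1558 and 1902 in controls and 397, 719.9 and 256 in tumors. The gap was clear here too, from 1558 down to 719.9. The means were 1932 ± 390.1 and 457 ± 238 (SD, n = 3 each) with a log2 difference of -2.19 (SE 0.39, adjusted p = 0.00570), and a further probe set gave -2.08.

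*Ccl5* (RANTES) is secreted by T cells, NK cells and platelets and attracts T cells and monocytes. Its signals were 1497, 248 and 520.2 in controls and 96.8, 77.8 and 98.5 in tumors. The tumors were close together and all below 100, while the controls were widely spread with control gland 1 on top. The log2 difference was -2.67 (SE 0.59, 95% interval -4.05 to -1.30, adjusted p = 0.0131), and the call was lost without tumor 2 (adjusted p = 0.0502). The difference was -1.99 without control 1 and -3.29 without control 2. *Ccl4* (MIP-1β) had a log2 difference of 0.21 (95% interval -0.84 to 1.27, adjusted p = 0.746), and *Ccl3* (MIP-1α) was below 50 on every array. The receptor gene *Ccr1* had signals of 125 to 293 in controls and 107 to 211 in tumors, which overlapped, with a log2 difference of -0.33 (adjusted p = 0.557). Macrophage and monocyte markers gave 6 of 15 tested genes lower and 0 higher (median -1.22). Their summed signals were 58046, 40101 and 36372 in controls and 24193, 26960 and 16498 in tumors. *Cd163*, a scavenger receptor (-4.09, adjusted p = 0.00103), *Mrc1*, the mannose receptor (-3.24, adjusted p = 0.0212), and *Lyz2*, lysozyme (-1.98, adjusted p = 0.0304), were the 3 with the largest change. Of the 9 not called, *Fcgr1* (0.85), *Aif1* (0.27) and *Ctss* (0.12) had positive log2 differences, with overlapping groups, and the others had negative ones. T and NK cell markers gave 0 of 8 lower and 1 higher by limma (median -0.46, 4 at an unadjusted p under 0.05). Their summed signals were 1792 to 5645 in controls and 1582 to 2141 in tumors. The gene called higher was the cytotoxic protease *Gzmb* (2.12, adjusted p = 0.00209). *Gzmb* passed the filter through the tumor arrays alone, so its test was conditioned on the difference. Among the defining T-cell genes, *Cd3d* gave 923, 108 and 309 in controls and 13.4, 113 and 47.6 in tumors (log2 difference -2.26, adjusted p = 0.0522). *Cd2*, *Cd3g* and *Cd5* did not pass the filter. They were highest in control 1, at 512, 682.5 and 530.4, and at most 8.9, 99.3 and 57.3 in tumors. *Cd3e* and *Cd4* were 282 and 56.2 in control 1. They were below 50 in all 3 tumors and also in controls 2 and 3, at 33.0 and 29.0 for *Cd3e* and 26.0 and 34.3 for *Cd4*. *Cd8a* overlapped, at 132 to 237 in controls and 135 to 170.0 in tumors. How these cells enter the *Ccl5*, *Ccl6* and *Ccl9* values was not tested.

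The 4 monocyte chemoattractants act mainly through CCR2, which draws monocytes from the blood, and 0 of the 2 tested were called by limma, with 0 at an unadjusted p under 0.05. *Ccl8* (MCP-2) gave 1561, 475 and 884 in controls and 1381, 971 and 119.6 in tumors. The groups overlapped almost wholly, and tumor 3 stood apart from the other tumors. The log2 difference was -0.68 (95% interval -2.80 to 1.45, adjusted p = 0.599), and it was 0.41 without tumor 3. *Ccl12* (MCP-5) had a log2 difference of 0.25 (95% interval -0.88 to 1.38). *Ccl2* (MCP-1) gave 126, 296 and 89.1 in controls and 88.8, 71.6 and 19.4 in tumors. *Ccl7* (MCP-3) gave 165, 245 and 90.0 in controls and 86.1, 47.4 and 51.3 in tumors. For both genes every tumor was below every control, but by a narrow margin, and neither passed the filter on low signals. Their receptor gene *Ccr2* was lower in tumors, from 865, 685 and 499 to 175, 208 and 74.2 (log2 difference -2.26, adjusted p = 0.00692). Averaged over the *Ccr2* probe sets that passed the filter, the log2 difference was -1.67.

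*Cxcl9*, *Cxcl10* and *Cxcl11* are induced by interferons and attract activated T cells through CXCR3. *Cxcl9* (MIG), the most dependent on interferon-γ, gave 908.5, 500.2 and 1799 in controls and 178, 236.5 and 23.9 in tumors. All tumors were below all controls, with a wide spread in both groups. The means were 1069 ± 664 and 146 ± 109.9 (SD, n = 3 each) with a log2 difference of -2.87 (SE 0.67, 95% interval -4.43 to -1.30, adjusted p = 0.0160), which lost its call without control 3 (adjusted p = 0.0532) and was -2.19 without tumor 3. A further probe set of *Cxcl9* gave -1.04 (adjusted p over probe sets 0.0560). *Cxcl10* (IP-10), whose interferon element is printed above, had overlapping signals of 44.9 to 182 and 69.4 to 251 and a log2 difference of 0.32 (95% interval -1.08 to 1.72, adjusted p = 0.713). *Cxcl11* (I-TAC) gave 10.3, 18.0 and 20.5 in controls and 82.3, 21.8 and 136.8 in tumors, all controls below 50, and was not tested. The difference between the members of this trio was not tested. Interferon-response genes went both ways, with 3 of 12 higher, 3 lower and a median of 0.16. Over all genes tested, 16.3% were called higher and 16.8% lower, so these counts are a description. *Irf7* (1.83, adjusted p = 0.00697), *Ifit1* (1.81, adjusted p = 0.0177) and *Irf9* (1.35, adjusted p = 0.00662) were higher, and *Irf8* (-1.49, adjusted p = 0.0315), *Gbp2* (-0.97, adjusted p = 0.0319) and *Irf1* (-0.64, adjusted p = 0.0481) were lower. The other 6, among them *Gbp3* (0.74), *Ifit3* (0.24) and *Stat2* (-0.12), were not called. The shared receptor gene *Cxcr3* gave 422, 125 and 396.5 in controls and 108, 93.4 and 112 in tumors (log2 difference -1.41, adjusted p = 0.0520). Its adjusted p was 0.0025 without control 2 and 0.102 to 0.156 without any other single array.

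The CXC attractants of neutrophils sit in 1 gene cluster, and 1 of the 2 tested members was lower. *Cxcl15* (lungkine), known from lung epithelium, gave 954, 878.5 and 514 in controls and 63.8, 104 and 27.7 in tumors. Every tumor was far below the lowest control, control 3, and tumor 3 was again the lowest. The means were 782 ± 235 and 65.1 ± 38.0 (SD, n = 3 each), and *Cxcl15* fell by 3.45 on the log2 scale (SE 0.36, 95% interval -4.29 to -2.61, adjusted p = 0.000718), or 10.9-fold. *Cxcl1* (KC) gave 606, 489.5 and 251 in controls and 463, 455 and 347 in tumors. The tumors lay within the range of the controls, and the log2 difference was -0.01 (95% interval -0.83 to 0.81, adjusted p = 0.987). Its probe set is of a kind that may also bind related transcripts, as are those of *Ccl27a* and of the receptor genes *Ackr3* and *Ackr4*. A further probe set of *Cxcl1*, of such a kind too, gave -0.11. Another, not of such a kind, gave -0.47 (adjusted p over probe sets 0.446). *Cxcl2*, *Cxcl3* and *Cxcl5* did not pass the filter, and the 2 latter were below 50 on every array. *Cxcl1*, *Cxcl2* and *Cxcl3* are the genes with the NF-κB letters above, and *Cxcl15*, between *Cxcl3* and *Cxcl1* on the chromosome, has no match to them in its window. Of the inducing cytokine and NF-κB genes 0 of 6 tested were called by limma (1 at an unadjusted p under 0.05), with a median of -0.45. Of the neutrophil list 1 of 4 was higher, *S100a8* (2.13, adjusted p = 0.0155), which encodes a calcium-binding subunit of calprotectin, and 0 were lower (median -0.13).

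*Cxcl13*, which guides B cells into follicles through CXCR5, gave 2771, 279.0 and 792 in controls and 127, 171.5 and 153 in tumors. The tumors were close together below all controls, while the controls ranged widely from control 2 to control 1. The means were 1281 ± 1316 and 150.3 ± 22.4 (SD, n = 3 each) with a log2 difference of -2.51 (SE 0.73, 95% interval -4.23 to -0.79, adjusted p = 0.0355). The difference was -1.66 without control 1, -3.31 without control 2, and the call was lost without control 3 and without each tumor in turn (adjusted p = 0.0856 to 0.0896). A further probe set gave 7424, 162 and 1720 in controls against 128, 41.7 and 35.8 in tumors. The summed signal of the B-cell and follicle genes moved with it in the same order of controls. It was 36578, 3754 and 6093 in controls and 921, 1223 and 676 in tumors. *Jchain*, the largest part of the sum in controls 1 and 2, had another order (23972, 2496 and 1275 in controls 1 to 3). *Pax5* and *Madcam1* were highest in control 3. Of the 9 genes tested 5 were lower with 0 higher (median -2.86). The immunoglobulin joining chain *Jchain* (-4.44, adjusted p = 0.0191), the B-cell surface gene *Ms4a1* (-4.10, adjusted p = 0.0163) and *Bank1* (-3.14, adjusted p = 0.0108) led the list. *Ms4a1*, which defines B cells, gave 3957, 187 and 1075 in controls and 49.9 to 62.0 in tumors. *Ms4a1* and *Cd79b* passed the filter through the control arrays alone, so the count is a description. The share of these cells in the *Cxcl13* value was not tested. *Cxcr5* did not pass the filter, with 304, 55.4 and 115.5 in controls and 15.8, 37.7 and 58.3 in tumors. Of the dendritic cell genes 3 of 7 were lower and 0 higher (median -1.17), 1 of them, *Cd209a*, after passing the filter through the controls alone.

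Of the 5 chemokines of epithelia and mucosae 4 were tested and 2 were higher, the 2 members that rose. *Ccl28*, the mucosal chemokine that brings IgA-secreting plasma cells to the lactating gland through CCR10, gave 123, 57.4 and 91.9 in controls and 324, 514 and 487 in tumors. Every tumor was above every control by a wide margin. The means were 90.9 ± 33.0 and 441.5 ± 103 (SD, n = 3 each), and *Ccl28* rose by 2.32 on the log2 scale (SE 0.34, 95% interval 1.53 to 3.11, adjusted p = 0.00262), or 4.99-fold. Its other 2 probe sets were below 100 on every array and overlapped between the groups. *Ccl25* (TECK), known from thymus and gut, where it binds CCR9, gave 116, 76.0 and 124 in controls and 174, 175.5 and 201 in tumors. The groups did not overlap, and the difference was smaller, with a log2 value of 0.83 (SE 0.25, 95% interval 0.24 to 1.41, adjusted p = 0.0396) that lost its call whichever array was left out (adjusted p = 0.0593 to 0.102). In the limma fit over probe sets its adjusted p was 0.0519. A further probe set of *Ccl25* gave 94.2, 90.4 and 89.2 in controls and 95.9, 120.5 and 110.9 in tumors, and did not pass the filter. *Ccl27a* (CTACK), the skin chemokine that also binds CCR10, had overlapping signals and a log2 difference of 0.50 (95% interval -0.16 to 1.16, adjusted p = 0.209). *Cxcl17*, a mucosal chemokine, gave 413, 241 and 255 in controls and 97.5, 114 and 235.5 in tumors. Its tumors were all below its controls, tumor 3 narrowly, with a log2 difference of -1.09 (adjusted p = 0.0654), and without tumor 3 it was -1.48 (adjusted p = 0.0199). *Ccl20*, the ligand of CCR6, gave 3.3 to 9.4 in controls and 10.8 to 73.3 in tumors and did not pass the filter. Epithelial genes moved with *Ccl28* and *Ccl25*, with summed signals of 20822, 11361 and 25216 in controls and 74185, 91701 and 97280 in tumors. The 3 with the largest change were the tight junction genes *Cldn3* (log2 difference 3.35, adjusted p = 0.00136) and *Cldn7* (3.21, adjusted p = 0.00278) and the epithelial splicing regulator *Esrp2* (3.17, adjusted p = 0.00231). Their part in the 2 values was not tested. The receptor genes *Ccr9* and *Ccr10* did not pass the filter.

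*Cxcl12* (SDF-1) is made constitutively by stromal and endothelial cells and holds CXCR4-bearing cells in place. Its brightest probe set gave 4243, 3292 and 3282 in controls and 5953, 3003 and 960.0 in tumors. The tumors spanned the controls, and the log2 difference was -0.47 (95% interval -1.88 to 0.93, adjusted p = 0.578). It was 0.24 without tumor 3. A second probe set gave 2485, 2100.4 and 2186 in controls and 1079, 608 and 237 in tumors. Here all tumors were below all controls, with a log2 difference of -2.07 (SE 0.50, adjusted p over probe sets 0.0193), so the probe sets of *Cxcl12* disagree. In both, tumor 1 was the highest tumor and tumor 3 the lowest. *Cxcl14*, another constitutive chemokine of epithelia and stroma, gave 1192, 780.5 and 1119 in controls and 919, 638 and 255 in tumors. Tumor 1 lay within the controls and tumors 2 and 3 below them, with a log2 difference of -0.93 (95% interval -2.02 to 0.16, adjusted p = 0.162), while its other probe set gave -0.03. Of the endothelial genes 9 of 12 were lower and 0 higher (median -1.71), with *Vwf* passing the filter through the controls alone. *Cxcr4* had signals of 328 to 476 in controls and 480.2 to 790.4 in tumors, which did not overlap, with a log2 difference of 0.78 (adjusted p = 0.0638).

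The membrane-anchored chemokines *Cx3cl1* (fractalkine) and *Cxcl16* serve as adhesion molecules until they are shed. *Cx3cl1* gave 827, 298 and 588 in controls and 257, 148 and 402 in tumors, which overlapped, with a log2 difference of -1.08 (95% interval -2.20 to 0.04, adjusted p = 0.121). *Cxcl16* gave 531, 326 and 340.5 in controls and 341, 322.5 and 382 in tumors, with a log2 difference of -0.16 (95% interval -0.75 to 0.43, adjusted p = 0.653). A further tested probe set gave -0.15 for *Cx3cl1* and 0.35 for *Cxcl16* (adjusted p over probe sets 0.857 and 0.421). Neither ligand was called, but both of their receptor genes were. *Cx3cr1*, found on monocytes and tissue macrophages, gave 171, 135 and 159 in controls and 415, 543 and 297 in tumors, a rise of 1.40 on the log2 scale (adjusted p = 0.00798). *Cxcr6* gave 498, 148 and 333 in controls and 117, 73.3 and 48.2 in tumors, a log2 difference of -1.94 (adjusted p = 0.0223). Whether ligand and receptor differ in their change was not tested.

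Of the 17 chemokine receptor genes listed, 16 were matched on the array and 7 passed the filter, of which 1 was higher, 2 were lower and 4 were not called (median -1.41). *Ccr6*, the receptor of *Ccl20*, had a log2 difference of -2.12 (adjusted p = 0.0567) and was called without control 2 (adjusted p = 0.0110). It was not called without any other single array (adjusted p = 0.0880 to 0.159). The 5 atypical receptors, most of which bind chemokines without classical signaling and scavenge or present them, were all lower, with a median log2 difference of -2.35. *Ackr3*, which takes up CXCL12, gave 3071, 3420 and 3036 in controls and 823, 560.1 and 524 in tumors (-2.35, adjusted p = 0.000680). *Ackr1*, which carries inflammatory chemokines across venular endothelium, gave 695, 582 and 628 in controls and 64.4, 139 and 112 in tumors (-2.66, adjusted p = 0.00113). *Ackr2*, which degrades inflammatory CC chemokines, gave 424, 247 and 469.8 in controls and 74.1, 94.7 and 8.2 in tumors (-2.38, adjusted p = 0.00253). Averaged over the *Ackr2* probe sets that passed the filter, the log2 difference was smaller, at -1.34. *Ackr4*, which binds CCL25 among others, had -1.41 (adjusted p = 0.0124), and *Ccrl2*, a relative that binds chemerin, had -1.27 (adjusted p = 0.0117). For each of these 5 genes every tumor was below every control. *Ackr2* and *Ackr4* reached a signal of 100 on the control arrays alone, so that passing the filter required their difference, and 16.8% of all genes tested were called lower. Of the 3 tested genes for proteases that cut chemokines limma called 0, with 1 at an unadjusted p under 0.05 (median 0.49).

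**Figure D4:**
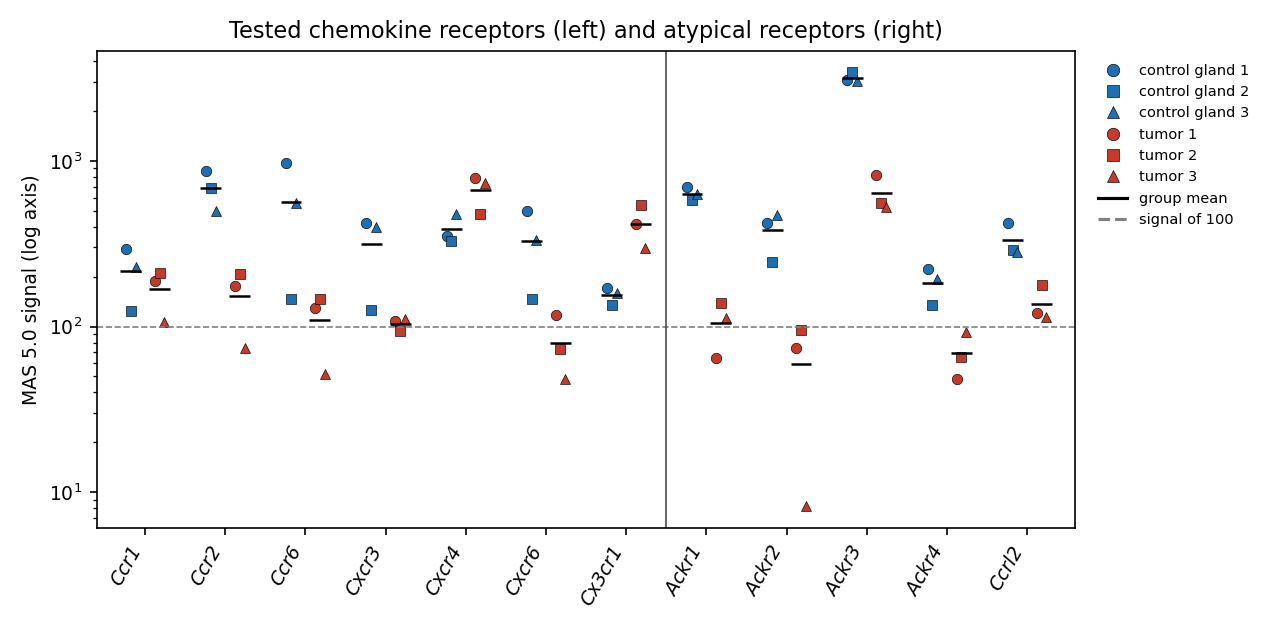
MAS 5.0 signal (log axis) of the tested chemokine receptor and atypical receptor genes, 1 point per array, control glands in blue and tumors in red, with the group mean as a bar. *Cx3cr1* is the gene called higher (135 to 171 in controls, 297 to 543 in tumors), and the 5 atypical receptors lie lower in every tumor, as for *Ackr3* (3036 to 3420 against 524 to 823).

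The remaining members were dim. Of the 33 members, 13 did not pass the filter and 7 of them were below a signal of 100 on all 6 arrays. *Ccl3*, *Cxcl3* and *Cxcl5* were below 50 on all 6, so that no level above background can be stated. The ligands of CCR4 and CCR8, *Ccl1*, *Ccl17* and *Ccl22*, which attract regulatory and type 2 helper T cells, were not tested, and neither was *Xcl1*, the C chemokine that attracts cross-presenting dendritic cells. *Ccl22* gave 165, 3.5 and 37.5 in controls and 11.9, 62.1 and 72.8 in tumors, which overlapped. Among the 13, every tumor was above every control for *Ccl20* and *Cxcl11* and below for *Ccl2*, *Ccl7* and *Ccl24*. When the filter was dropped, limma called 0 of the 13 (lowest adjusted p = 0.123) and 1, *Ccl7*, had an unadjusted p under 0.05.

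**Figure D5:**
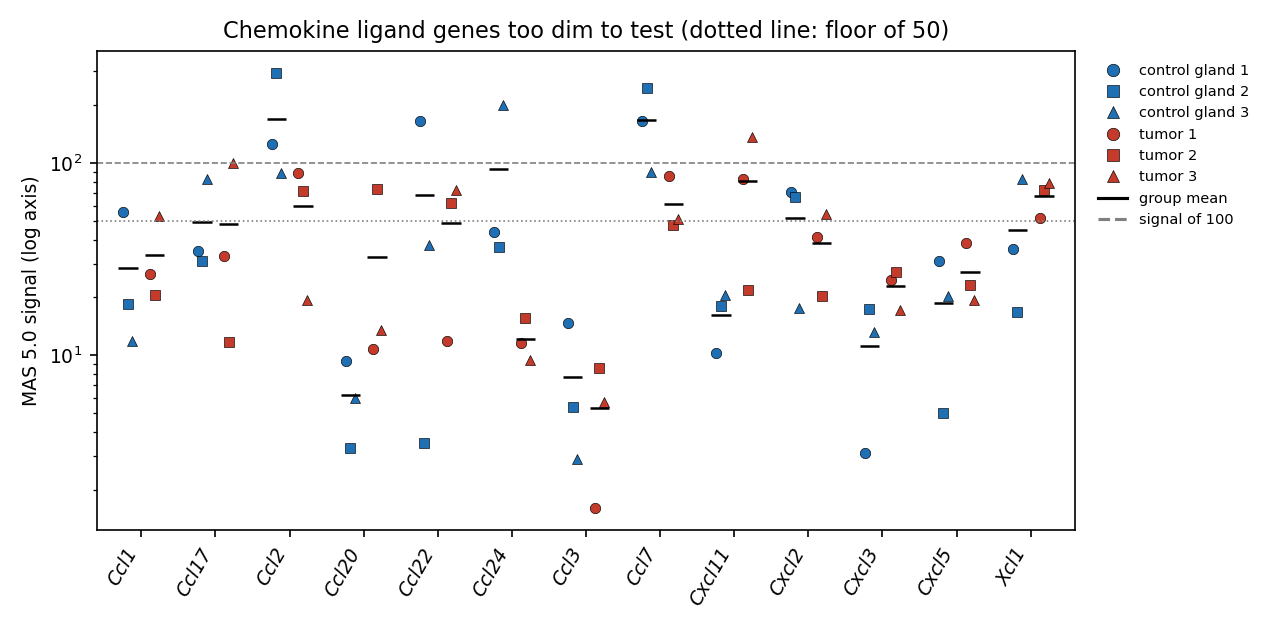
MAS 5.0 signal (log axis) of the 13 chemokine ligand genes that did not pass the filter, 1 point per array, control glands in blue and tumors in red, with signals of 50 and 100 as lines. Few points lie above 100, among them *Ccl2* in control 2 (296) and *Ccl7* in control 2 (245), and *Ccl3*, *Cxcl3* and *Cxcl5* lie below 50 throughout.

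Chemokine genes lie in clusters that arose by duplication. By RefSeq gene order 32 of the 33 members could be placed, and 18 had another member as the next protein-coding gene, in 4 runs. In the run *Ccl2*, *Ccl7*, *Ccl11*, *Ccl12*, *Ccl8*, *Ccl1*, *Ccl11* was the called gene, between neighbors that were not tested or had log2 differences of 0.25 and -0.68. In the run *Ccl5*, *Ccl9*, *Ccl6*, *Ccl3*, *Ccl4* the 3 adjacent genes *Ccl5*, *Ccl9* and *Ccl6* were lower, and *Ccl4* at the other end was 0.21. In the run *Cxcl3*, *Cxcl15*, *Cxcl1*, *Cxcl2* the called gene was *Cxcl15*, next to *Cxcl1* at -0.01, and in the run *Ccl22*, *Cx3cl1*, *Ccl17* no gene was called.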

How the data were processed

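Per the labels and the study's methods, RNA was hybridized to Affymetrix M430 2.0 arrays and the authors computed MAS 5.0 signal intensities, scaling each array to a target of 500 (software version not given in the sources used here). The deposited values are these signals on a linear scale. MAS 5.0 scaling sets mean levels equal, so differences are relative to each array's total. Of 45101 probe sets, 64 controls were left out, 34945 had 1 symbol, 932 several (4 of them chemokine probe sets, not used) and 9160 none in the platform annotation. RefSeq updated 0 symbols.

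Signals were floored at 50, log2-transformed and kept at 100 or more on 3 of 6 arrays. The brightest probe set per gene gave 12518 genes. Tumor and control arrays were compared with limma 3.58.1 in R 4.3.3 (2-sided, Benjamini-Hochberg over all genes, adjusted p under 0.05, no fold limit), after a test on simulated data. The number of arrays limits the precision. All members were named, with per-array values for called members and the 6 brightest uncalled ones, called receptors and tested receptors of called ligands, and up to 3 called genes of other lists. Values beyond this rule were chosen after they were seen. Lists (16, with 166 of 178 symbols annotated), members and tests were chosen with earlier results of these data known. Alternatives changed floor, filter, scaling, probe-set choice, variance model and arrays, and included a replicate block and the methods' t-test. No batch was given.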

Additional observations from a re-analysis of the deposited data

How the results depend on the processing

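No member changed the direction of a call under any alternative run. *Ccl11*, *Cxcl15*, *Ccl9* and *Ccl28* kept their calls in all 20 alternatives, and over all tested members 29 of 394 values lost a call and 2 gained one (*Cxcl17* without tumor 3 and *Cx3cl1* with the replicate block). The count of higher ligands was 1 with log2 of signal plus 50, without the filter, with a filter at 200, with a variance trend, with the replicate block, by the methods' t-test, with a 2-fold limit and without each array in turn (1 to 1), each time because *Ccl25* lost its call or was not tested. The count of lower ligands was 3 without the filter, where more dim genes were tested (*Ccl5*, *Ccl6*, *Cxcl9* and *Cxcl13* lost their calls), and 3 by the methods' t-test, and 5 to 7 without each array. The methods' t-test left 0 members after Benjamini-Hochberg adjustment, against 1 higher and 3 lower at its own thresholds. *Cxcl13* lost its call at a floor of 100, where its other probe set became the brightest (log2 difference -3.56, limma adjusted p = 0.0531). The signals of the probe set reported above were all over 100, so that floor did not alter them. Equal array medians moved the median of all genes to 0.31 and the split of all genes to 3026 higher and 1665 lower, from 2045 and 2098, and quantile normalization moved the median to 0.12, while ligands stayed at 2 higher and 7 lower under both. Receptors including the atypical ones were 1 higher and 7 lower. They were 2 higher with quantile normalization and with equal medians (*Cxcr4*), 0 higher and 3 lower by the methods' t-test, and 1 to 2 higher and 6 to 9 lower without each array. *Cxcr6* lost its call without control 1 (adjusted p = 0.0582), control 3 (0.0725), tumor 2 (0.0688) or tumor 3 (0.0701). Same-numbered arrays did not deviate together (r = -0.222, 0.0206 and 0.0379). The labels do not say whether the numbers pair the samples, and these correlations cannot settle it. The replicate block gave 6 lower ligands (*Cxcl9* and *Cxcl13* lost) and 8 lower receptors. Unless stated, the cause of a change was not tested. Members near the floor have compressed fold changes.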

Other observations

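The platelet chemokine genes *Pf4* and *Ppbp*, whose names fall outside the rule and which were chosen after their values were seen, had lower signals in the tumors. *Pf4* gave 1640.5, 1872 and 1880.5 in controls 1 to 3 and 698, 651 and 202 in tumors 1 to 3, a log2 difference of -1.99 (limma adjusted p = 0.0164). *Ppbp* gave 219, 317 and 255 in controls and 98.9, 82.4 and 41.5 in tumors, a log2 difference of -1.82 (limma adjusted p = 0.00466), but it reached a signal of 100 on the control arrays alone, so that passing the filter required the difference. For both genes every tumor was below every control.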
